A study of Mus musculus with 2 samples.

Results

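The expression of 9 genes of hepatic glucose handling was read from arrays of primary hepatocytes lacking *Drp1* and of control hepatocytes. The genes were taken by name: *G6pc*, *Pck1*, *Fbp1* and *Pcx*, which encode gluconeogenic enzymes, *Ppargc1a*, which encodes a transcriptional coactivator, *Slc2a2*, which encodes a glucose transporter, *Gys2* and *Pygl*, which encode the liver enzymes that build and break down glycogen, and *Pklr*, which encodes the pyruvate kinase of hepatocytes. All 9 were among the 37071 gene names of the array, with 10 of its 56600 transcript probes. *Ppargc1a* had a pair of probes and every other gene had 1. Each gene was well above background on at least 1 array, and 7 of the 9 were so on both.

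*Drp1*LiKO cells came from C57BL/6 mice with floxed *Drp1* alleles and an *Alb-Cre* transgene, in which the albumin promoter drives the recombinase. Whether other liver cells carried over into a culture keep the gene was not tested. Control cells, labeled wild type control, came according to the methods from *Drp1*flox/flox littermates without the transgene. Livers were taken from mice fed ad libitum. Both cultures were grown in high glucose medium (4500 mg/L) with 1 μM insulin and 10% serum, changed after 4 h, and were harvested 24 h after seeding. The age and sex of these animals, and whether animals were pooled, are not given in the sources used here. Cy3-labeled RNA of each culture was read on 1 array, and the 2 arrays shared a slide and a scan. There was thus no replicate and no test was made, and every difference describes these 2 arrays.

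In the fed state, hepatocytes take up glucose, store it as glycogen and pass the surplus through glycolysis, and insulin holds down the genes of glucose production. In fasting, glucagon and glucocorticoids turn on gluconeogenesis through the cAMP response element binding protein, forkhead factors and the coactivator PGC-1α, the product of *Ppargc1a*. Glucose-6-phosphatase, encoded by *G6pc*, makes the last step of both gluconeogenesis and glycogen breakdown, and phosphoenolpyruvate carboxykinase, encoded by *Pck1*, an early one of gluconeogenesis.

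The array reads each transcript with a probe of 60 bases, and the middle 30 bases (positions 16 to 45) of the probes behind the largest differences are shown here as the files list them, to identify what was measured. The files place each probe in mm9. The probes of *Ppargc1a* (NM_008904) lie on the minus strand at chr5:51848928-51848987 (the brighter) and chr5:51849419-51849478 (the dimmer), with 431 bases between them. The probe of *Pck1* (NM_011044) lies at chr2:172984307-172984366, that of *G6pc* (NM_008061) at chr11:101238947-101239006, that of *Fbp1* (NM_019395) at chr13:62966175-62966234 on the minus strand, and that of *Gys2* (NM_145572) at chr6:142371157-142371216 on the minus strand. The files give no exon or UTR for them.
*Ppargc1a*, brighter probe: gcatttccatgaagacacacttaaaaccta
*Ppargc1a*, dimmer probe: tttgatagtttactgaaggaagctcagaga
*Pck1*: attgggaggggaaatcaccgcatagtctct
*G6pc*: tttccctagcccaagccagccaagagctct
*Fbp1*: gcaatgcccaaggtcacttcatcctcatgc
*Gys2*: aacggtacttttgttgtctaattggaaatt

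The upstream sequences of *Ppargc1a*, *Pck1* and *G6pc* are shown because these are the members best known for hormonal control of their transcription, and because they include the highest and the lowest ratio of the set. The 250 bases before the annotated start were read from RefSeq windows of GRCm38.p6, which held 10 windows for 8 members. They lie at chr5:51567726-51567975 on the minus strand for *Ppargc1a*, at chr2:173152823-173153072 for *Pck1* and at chr11:101367466-101367715 for *G6pc*. Capitals mark matches, read on either strand, to the core of a cAMP response element, TGACG, and to an insulin response core, TGTTTTG. They also mark an HNF1 core, GTTAAT, and the TATA box, TATAAA. A match on the other strand appears as its reverse complement.
*Ppargc1a*: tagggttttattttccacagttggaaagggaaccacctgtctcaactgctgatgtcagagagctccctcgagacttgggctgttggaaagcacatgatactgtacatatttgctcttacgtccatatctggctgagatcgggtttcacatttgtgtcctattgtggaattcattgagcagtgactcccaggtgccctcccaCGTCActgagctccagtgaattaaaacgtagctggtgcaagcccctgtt
*Pck1*: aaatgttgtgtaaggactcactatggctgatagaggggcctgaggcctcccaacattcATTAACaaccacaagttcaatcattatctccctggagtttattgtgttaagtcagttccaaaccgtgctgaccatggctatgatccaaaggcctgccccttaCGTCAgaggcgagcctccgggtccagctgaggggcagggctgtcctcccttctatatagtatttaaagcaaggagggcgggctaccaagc
*G6pc*: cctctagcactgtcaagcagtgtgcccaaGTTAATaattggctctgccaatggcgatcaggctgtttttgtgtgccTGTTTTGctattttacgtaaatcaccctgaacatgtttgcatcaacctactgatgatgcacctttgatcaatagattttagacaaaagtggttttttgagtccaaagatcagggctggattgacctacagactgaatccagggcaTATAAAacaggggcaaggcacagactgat

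TGACG was found in the windows of *Pck1*, *Ppargc1a* and *Pygl*, starting 90, 49 and 44 bases before the start. It was present in 3 of the 10 windows and in 17.8% of all 32851 windows of the table. GTTAAT was found for *G6pc* (221 bases before the start) and *Pck1* (192 bases), and in 6.43% of all windows. TGTTTTG was found for *G6pc* alone, 174 bases before the start, and in 5.56% of all windows. TATAAA stood 29 bases before the start of *G6pc* and 31 bases before a start of *Pklr*, and in 12.4% of all windows. CACGTG, an E-box, was found at a start of *Pcx* alone and in 6.02% of all windows, and the forkhead core TGTTTAC in no member window and in 3.17% of all windows. These matches describe letters in a short window and not sites in use.

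**Figure D1:**
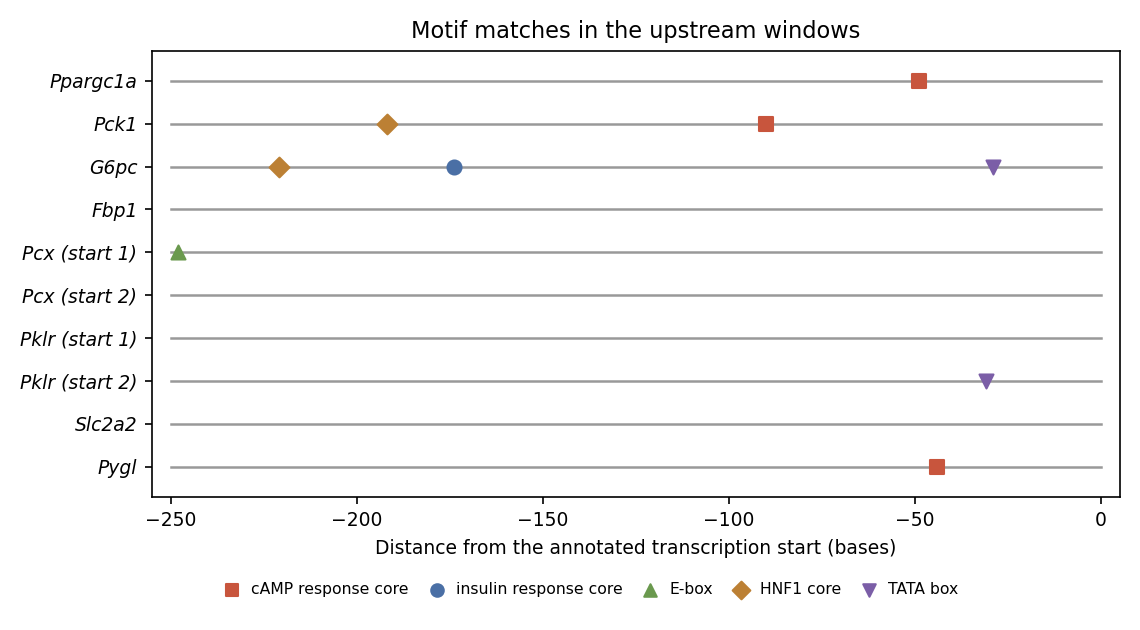
Matches to the searched motifs in the 250 bases upstream of 10 annotated starts of 8 genes, by distance from the start in bases (x axis; the position is that of the leftmost base of the match). The cAMP response core stands in the windows of Ppargc1a, Pck1 and Pygl, and the insulin response core in that of G6pc.

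*Ppargc1a* had the highest ratio of the set, and both of its probes showed it. The signal, a background-corrected intensity, of the brighter probe was 133 in control cells against 489 in *Drp1*LiKO cells. At the dimmer probe it was 32.4 and 128. Both probes were well above background on both arrays, and at each of them the *Drp1*LiKO signal was the higher. After each array was scaled to its 75th percentile, the brighter probe was 3.23-fold higher in *Drp1*LiKO cells, at a log2 ratio of 1.69, and the dimmer was 3.48-fold higher (1.80). The noise of such a difference between single spots, taken from probes printed 10 times on each array, was 0.14 and 0.21 on the log2 scale. This noise holds no difference between cultures. The ratio of the brighter probe was above that of 97.9% of the 20165 genes compared.

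The study chose its genes by a Z score whose formula is not given in the sources used here. It was computed here as the ratio minus the mean of all compared probes, divided by their SD of 0.65. A Z score of 2 corresponds to 2.46-fold higher and one of -2 to 2.48-fold lower expression. *Ppargc1a*, at 2.61, was the only member past either limit, whereas 3.5% of all genes compared were past the upper and 2.81% past the lower limit. In the deposited normalized table the brighter probe had a log2 ratio of 1.16, a Z score of 1.77, and the dimmer one had 1.91. With no floor for dim signals the Z score of the brighter probe was 1.84. With normexp background correction the brighter probe had 1.29 and the dimmer one 0.84.

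The gluconeogenic enzymes went apart. *Fbp1* encodes fructose-1,6-bisphosphatase, which acts opposite to phosphofructokinase. Its signal was 5449 in control cells against 10183 in *Drp1*LiKO cells, both well above background. It was 1.65-fold higher in *Drp1*LiKO cells, at a log2 ratio of 0.72 with a spot noise of 0.07, and 91.9% of all genes had a lower ratio. Across 9 alternative settings the ratio stayed between 0.71 and 0.79. Of these, the floor, the filters and the median of a gene's probes cannot change it. *Fbp1* has 1 probe, well above background on both arrays.

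*Pck1* and *G6pc* were both close to the detection limit, and each was well above background on 1 array only. *Pck1* had a signal of 11.7 in control cells, not well above background, and of 40.2 in *Drp1*LiKO cells. With the control signal raised to 18.2, the lowest signal well above background on its array, *Pck1* was at least 1.95-fold higher in *Drp1*LiKO cells (log2 ratio 0.96). *G6pc* had a signal of 27.3 in control cells and of 14.1, not well above background, in *Drp1*LiKO cells. Against the lowest such signal of the *Drp1*LiKO array it was at least 2.07-fold lower there (log2 ratio -1.05). The spot noise at these signals was 0.31 for *Pck1* and 0.34 for *G6pc*.

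The choice of processing moved both values by more than 1.5 times. With normexp background correction the log2 ratios were 0.25 for *Pck1* and -0.43 for *G6pc*, and with no floor that of *Pck1* was 1.603. In the deposited normalized table *G6pc* had 31.0 in control cells and 20.3 in *Drp1*LiKO cells. The latter is under a detection limit of 23.8 set for that table, against which the log2 ratio of *G6pc* was a bound of -0.38. *Pck1* lay under that limit in both columns, with 13.2 in control cells against 10.3 in *Drp1*LiKO cells, which is the opposite order to the arrays. The *Drp1*LiKO column of that table did not keep the order of the *Drp1*LiKO array for all probes (rank correlation 0.958 across probes, which are not independent replicates). For the control column the rank correlation with its array was 0.999999. After both were centered on their medians, 3.65% of the probes well above background on the *Drp1*LiKO array differed by more than 2-fold.

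*Pcx* encodes pyruvate carboxylase, the mitochondrial enzyme that makes oxaloacetate for gluconeogenesis. Its signal was 2518 in control cells against 2919 in *Drp1*LiKO cells (NM_001162946, chr19:4621610-4621669). The scaled log2 ratio was 0.03, below its spot noise of 0.10. On these arrays it thus differed by less than the noise between spots, while in the deposited normalized table its log2 ratio was 0.22.

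*Pklr* and *Slc2a2* also differed by less than that noise on the arrays. The signal of *Pklr* was 272 in control cells against 303 in *Drp1*LiKO cells, giving a log2 ratio of -0.02 with a spot noise of 0.15. That of *Slc2a2*, which encodes GLUT2, the main glucose transporter of hepatocytes, was 46.5 and 54.8, a log2 ratio of 0.06 with a spot noise of 0.26. Both probes lie across a gap in the genome, at chr3:88948907-88949425 for *Pklr* (NM_013631) and at chr3:28625253-28625961 for *Slc2a2* (NM_031197). The signal of *Slc2a2* was low on both arrays, so a difference smaller than its noise was not detectable.

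The glycogen enzymes differed from each other. *Gys2* encodes liver glycogen synthase, and its signal was 236 in control cells against 498 in *Drp1*LiKO cells. It was 1.86-fold higher in *Drp1*LiKO cells, at a log2 ratio of 0.89 with a spot noise of 0.14, and 93.8% of all genes had a lower ratio. *Pygl* encodes liver glycogen phosphorylase, which releases glucose units from glycogen. Its signal was 19439 in control cells against 21190 in *Drp1*LiKO cells (NM_133198, chr12:71291855-71291914, minus strand). At a log2 ratio of -0.06, with a spot noise of 0.06, it did not differ beyond that noise.

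**Figure D2:**
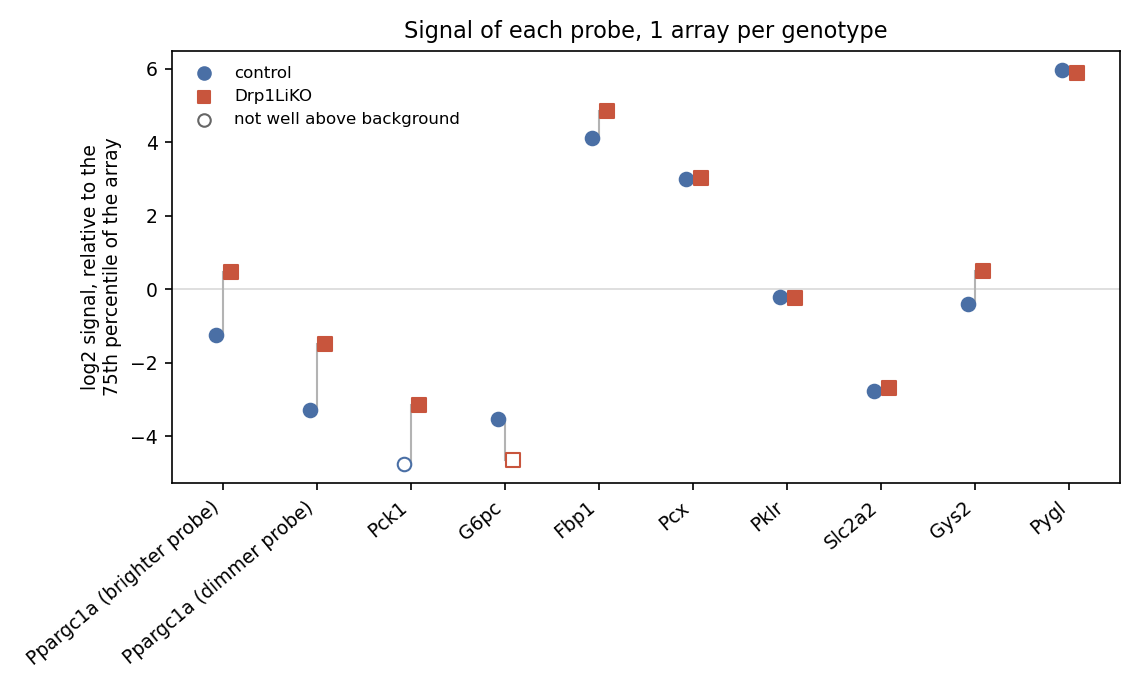
Log2 signal of each of the 10 probes relative to the 75th percentile of its array (y axis) for control (circles) and Drp1LiKO (squares), 1 array each, with open symbols for signals not well above background; only the 2 points of 1 probe can be compared. Both probes of Ppargc1a, and those of Fbp1 and Gys2, are higher in Drp1LiKO, while the points of Pcx, Pklr, Slc2a2 and Pygl nearly coincide.

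Over the 9 genes, the log2 ratios reached from -1.05 for *G6pc*, a bound, to 1.69 for *Ppargc1a*. Their median was 0.06, beside -0.05 over all genes compared. At least 1.5-fold higher in *Drp1*LiKO cells were 4 members (*Ppargc1a*, *Pck1*, *Gys2* and *Fbp1*), and 1 (*G6pc*) was at least 1.5-fold lower, beside 10.3% of all genes in each direction. The other 4 lay within 1.5-fold, beside 79.4% of all genes. The count includes *Pck1* and *G6pc*, which were compared only because 1 array measured them. Of the 7 members well above background on both arrays, 3 were at least 1.5-fold higher, 0 were lower by as much, and 4 lay within 1.5-fold. Of the 17735 genes measured in this way on both arrays, 8.43% were at least 1.5-fold higher, 8.42% at least 1.5-fold lower and 83.2% within 1.5-fold. The ratios of the 4 members within 1.5-fold were each below 1 spot noise, and those of the other 3 were at least 6.50 times it.

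**Figure D3:**
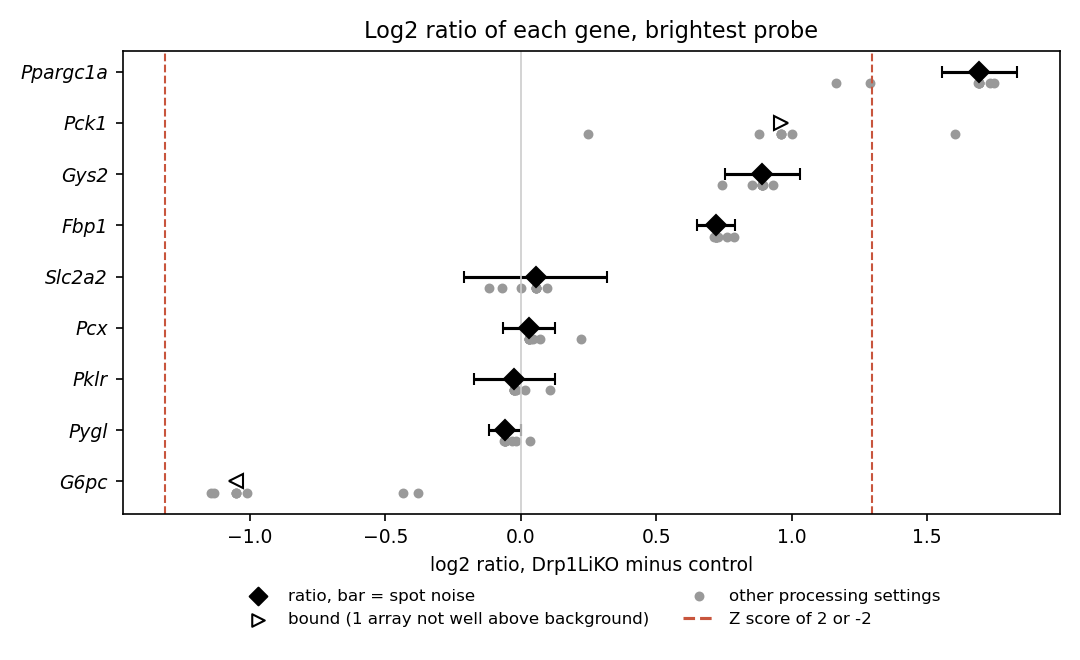
Log2 ratio of Drp1LiKO over control for the brightest probe of each gene (x axis). Filled diamonds carry a bar of 1 spot noise, open triangles are bounds, gray points are the other processing settings, and dashed lines mark Z scores of 2 and -2; Ppargc1a at 1.69 lies past the upper line, and Slc2a2, Pcx, Pklr and Pygl lie near 0.

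The other genes of these pathways were read from 5 lists that hold 77 genes, 71 of them detected on both arrays at their brightest probe. Of these, 30 were higher and 41 lower in *Drp1*LiKO cells, 7 were at least 1.5-fold higher and 3 at least 1.5-fold lower, and 1 passed the Z score in each direction. Among all genes measured on both arrays, 43.6% were higher in *Drp1*LiKO cells, and the shares past 1.5-fold were the 8.43% and 8.42% given above. The median log2 ratio of the 71 genes was -0.06.

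In a list of 18 gluconeogenic and shared triose enzymes, the median log2 ratio was -0.14, with 6 genes higher and 12 lower. *Gpt*, alanine aminotransferase, which turns alanine into pyruvate, had the highest ratio, 0.99, with a signal of 3357 in control cells against 7568 in *Drp1*LiKO cells, and its other probe had 0.66. *Mpc1*, a subunit of the mitochondrial pyruvate carrier, followed at 0.40. *Pck2*, the mitochondrial counterpart of *Pck1*, was at -0.56, while its other probe was at -0.17. *Slc37a4*, which carries glucose 6-phosphate to the phosphatase encoded by *G6pc*, was at -0.10 at its brightest probe and at 0.88 at a dim probe.

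In a list of 10 genes of hepatic glucose and fructose use, *Pdk4* had the highest ratio. *Pdk4*, a kinase that switches off pyruvate dehydrogenase, had a signal of 144 in control cells against 539 in *Drp1*LiKO cells, 3.30-fold higher, with a log2 ratio of 1.72 close to that of *Ppargc1a*. *Pfkl*, liver phosphofructokinase, was at -0.50 at its brightest probe and at 0.38 at a dimmer probe. *Pdhb*, a subunit of pyruvate dehydrogenase, was at 0.47. The median of this list was -0.29, and it was 0.04 when the median of all probes of a gene was used.

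The list of glycogen metabolism showed little spread. Of 16 genes, 14 were detected, and all 14 lay within 1.5-fold, with a median log2 ratio of -0.06. The lowest ratios were -0.46 for *Phkg2* and -0.45 for *Phka2*, subunits of the phosphorylase kinase that switches on *Pygl*'s product. The highest were 0.29 for *Gyg*, the glycogenin primer, and 0.36 for the gene that the array names *Pgm1* (chr5:64503307-64503366). The gene that the array names *Pgm2* (chr4:99659834-99659893) was at 0.23. *Ppp1r3c* and *Ppp1r3g*, which encode subunits that bring a phosphatase to glycogen, were not well above background on either array. *Gys2*, at 0.89, thus had a higher ratio than each of these 14 genes.

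In a list of 23 genes of hormonal and transcriptional control, 10 were higher and 13 lower, with a median log2 ratio of -0.03. Those at least 1.5-fold higher were *Tat* (1.28), *Klf15* (1.16), *Creb3l3* (1.07) and *Ppargc1b* (0.64). *Tat* encodes tyrosine aminotransferase, long known to be induced by glucocorticoids in liver, with a signal of 151 in control cells against 416 in *Drp1*LiKO cells. *Klf15* and *Creb3l3* encode transcription factors of the fasting liver, and *Ppargc1b* the coactivator related to *Ppargc1a*. *Pik3r1*, a regulatory subunit of the kinase that acts downstream of the insulin receptor, was at -0.90, and *Igfbp1*, an insulin-repressed secreted protein, at -0.50. *Foxo1*, the forkhead factor that insulin keeps inactive, was at -0.22, and *Gcgr*, the glucagon receptor, at 0.02.

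Isoforms of the members that are used mainly in other tissues were given a list of 10 genes. Of these, *G6pc2*, *Fbp2*, *Slc2a3* and *Slc2a4* were not well above background on either array. *Slc2a1*, which encodes the widely expressed transporter GLUT1, had a signal of 3306 in control cells against 6174 in *Drp1*LiKO cells, giving a log2 ratio of 0.72. *Pygb*, brain glycogen phosphorylase, was at 0.41 and *Pygm*, muscle phosphorylase, at -0.06. *Pkm*, the pyruvate kinase of other tissues, was at 0.03. Its signal was high on both arrays, 48472 in control cells against 56004 in *Drp1*LiKO cells.

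**Figure D4:**
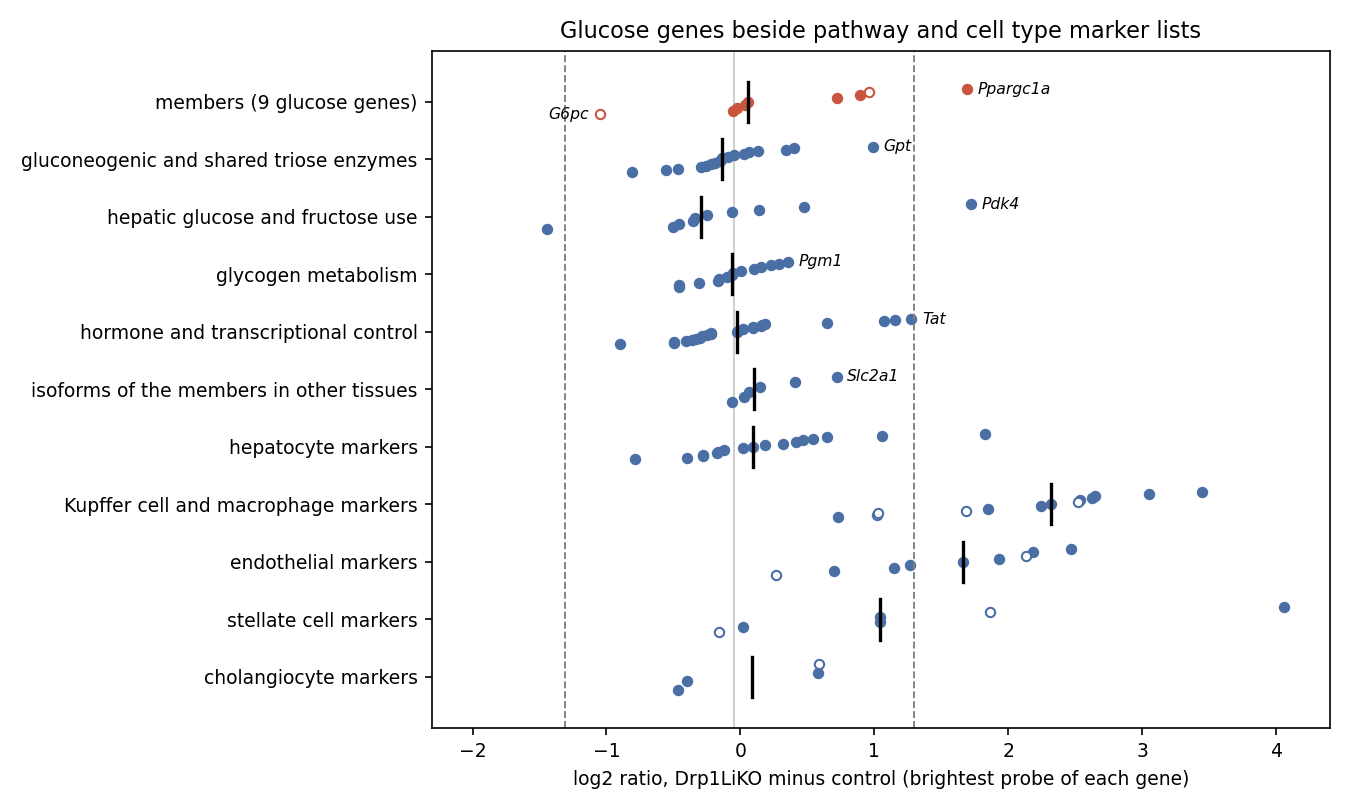
Log2 ratio of Drp1LiKO over control (x axis) of each detected gene in the set of 9 (top row, red), in 5 pathway lists and in 5 marker lists (blue). Open points are bounds, black bars are list medians, dashed lines mark Z scores of 2 and -2 and the gray line the median of all genes; the pathway medians lie between -0.29 and 0.10, and the Kupffer cell and macrophage median at 2.32.

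The labels were checked against *Dnm1l*, the symbol of *Drp1*. Its brightest probe had a signal of 2602 in control cells against 1217 in *Drp1*LiKO cells, giving a log2 ratio of -1.28, and its dim probe 22.8 and 20.9. Of 18 hepatocyte markers, 17 were detected on each array, and their median log2 ratio was 0.10, from -0.78 for *Cyp2e1* to 1.83 for *Ahsg*. *Cyp7a1* was not well above background on either. The signals of the 17 added up to 1090430 in control cells against 1199250 in *Drp1*LiKO cells before scaling. The 13 detected Kupffer cell and macrophage markers had a median log2 ratio of 2.32, from 0.73 for *Csf1r* to 3.45 for *Marco*. Their signals added up to 4730 and 20570, *Clec4f* and *Vsig4* were not well above background in control cells, and *Timd4* was so on neither array. Endothelial markers had a median of 1.66, with *Kdr* the highest at 2.47, and signals that added up to 4262 and 8960. Stellate cell markers had a median of 1.04, with *Dcn* the highest at 4.06, and signals that added up to 21830 and 29000. Most of each sum was the brightest probe of *Acta2*, with 21437 and 24640. The highest ratio among the probes of *Acta2* was 2.20. *Lrat* was not well above background on either array. Markers well above background in *Drp1*LiKO cells alone give bounds and are left out of the counts that follow, namely 4 of the Kupffer cell and macrophage list, 2 of the endothelial list, 2 of the stellate list and 1 cholangiocyte marker, *Krt7*. Of the markers measured on both arrays, 9 of 9 Kupffer cell and macrophage genes, 7 of 7 endothelial and 4 of 4 stellate genes were higher. Among all genes measured on both arrays, 43.6% were higher. The stellate count includes *Acta2* at 0.02, within its spot noise of 0.06. These counts use the brightest probe of each gene. The lowest ratio among the probes of *Csf1r* was -0.02, and among those of *Stab2* it was -0.25. Of 3 cholangiocyte markers measured on both arrays, *Sox9* was higher and *Krt19* and *Spp1* lower. Signals of the 4 detected cholangiocyte markers added up to 29379 and 24885, and *Epcam* was not well above background on either array. The arrays read whole cultures, in which fewer cells of a type and less RNA per cell cannot be told apart. The part that these other cells have in the ratios of *Ppargc1a*, *Pck1*, *G6pc*, *Fbp1* and *Gys2* was not tested.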

How the data were processed

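The authors hybridized Cy3-labeled RNA of 1 control and 1 *Drp1*LiKO culture to 60-mer Agilent mouse arrays and deposited, for each array, Feature Extraction output (version 10.7.1.1 in the file headers, 9.5.1.1 in the submitters' processing notes) with spot intensities: the raw mean, the local background, and a processed signal with background and spatial trends removed but no normalization between arrays. They also deposited a table of normalized intensities, by a method not given in the sources used here.

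From the processed signals, outlier-marked spots were left out, log2 values were averaged per probe, and each array's 75th percentile (313 for control and 356 for *Drp1*LiKO) was subtracted. Probes whose signal was well above background on either array were kept (30275 probes, 20165 genes), dim signals were raised to the lowest signal well above background on that array, and a gene was its brightest probe. A spot noise was the median SD of the 20 nearest probes printed 10 times, combined over both arrays. No spot was saturated (0 on each array). The number of arrays limits the precision. Members and lists were chosen with earlier results of these data known. Named, apart from a few genes not reported here, were all members, *Dnm1l*, the ends of each list and the genes of a member's own step; *Creb3l3* and *Ppargc1b* were added after their values were seen. The steps were tested on simulated data. Python 3.11.15, numpy 2.4.6, pandas 2.3.3, R 4.3.3 and limma 3.58.1 (normexp, offset 50) were used.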

Additional observations from a re-analysis of the deposited data

How the results depend on the processing

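No replicate could be left out, and no paired analysis was possible because each group is 1 array. Settings were quantile normalization, spike-in scaling, the deposited normalized values, normexp background correction, both-array and no filters on low probes, raw values without a floor, inclusion of outlier spots, the median of a gene's probes, and 2 other Z scores. Under each of these that gave a value, *Ppargc1a*, *Fbp1*, *Gys2*, *Pck1*, *G6pc* and *Pcx* kept the sign of their log2 ratio. *Pklr*, *Slc2a2* and *Pygl*, near 0, did not under all. *Pck1* had no value on both-array probes and in the deposited values, and *G6pc* none on both-array probes. The deposited signals of *Pck1*, 13.2 in control cells and 10.3 in *Drp1*LiKO cells, were under the detection limit set here and in the opposite order. The floor and the filters cannot change the ratio of a probe well above background on both arrays.

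Members past the upper Z score were 4 with a Z score from the median and median absolute deviation (and 1 past the lower), 3 with no filter, and 0 with the deposited values or with no floor, where *Ppargc1a* had Z scores of 1.77 and 1.84. Members at least 1.5-fold lower were 0 with the deposited values, normexp or both-array probes. Over all genes, normexp gave 1145 at least 1.5-fold higher and 1143 lower, the median-based Z score 1722 higher and 1443 lower, and no filter 1355 higher, where 69.4% of the genes past the Z score were higher, against 55.5% and the median of all genes -0.47.

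Medians of pathway lists moved with the deposited values to 0.0096 (gluconeogenic), -0.16 (glucose use) and 0.24 (isoforms), with the median of a gene's probes to -0.0693 (gluconeogenic) and 0.0424 (glucose use), and with normexp to -0.17 (control). Genes past the Z score numbered, in the gluconeogenic list, 2 with either other Z score and 1 with no filter or normexp, in the glucose use list, 1 with the Z score among probes of similar signal, the median of probes or normexp and 0 with no floor, in the control list, 4 with the median-based Z score, 3 with no filter, 2 with normexp or both-array probes and 1 with the deposited values or the similar-signal Z score, and, among isoforms, 1 with the median-based Z score. Macrophage markers had medians of 2.12 (deposited), 1.64 (normexp) and 2.53 (no floor, both-array probes), endothelial ones 1.93 (no floor) and 0.89 (normexp), stellate ones 1.41 (deposited) and 0.47 (normexp), cholangiocyte ones -0.34 (deposited), -0.10 (normexp) and -0.40 (no filter, both-array probes), and hepatocyte ones 0.29 (deposited), 0.22 (quantile) and 0.0055 (median of probes). *Dnm1l* was at -0.79 with the median of its probes. The cause of these shifts was not tested.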
